A study of Marchantia polymorpha with 12 samples.

Results

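The 88 genes described here had much more RNA 2 h after wounding than in unwounded plants, by a similar factor in a fatty acid desaturase double mutant and in the wild-type strain Tak-1 of the liverwort Marchantia polymorpha. They were chosen by measured values, as follows. Count values were scaled to CPM (a gene's count over the library total, times 1000000). These values were averaged over the libraries of each group, 0.5 was added and the log2 taken. T is the wounded minus the mock value in Tak-1 and M the wounded minus the mock value in the mutant. A member has T and M of at least 2.5, M and T less than 0.5 apart, and a mock mean of at least 1 CPM in both genotypes. MpWRKY10, MpPKS/CHS21, MpDHN2 and MpPOD161 also met these conditions and were left out by name. Of 20574 gene IDs in the table, 88 were members.

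RNA was sequenced from 12 libraries in 4 groups of 3: wounded mutant, mock mutant, wounded Tak-1 and mock Tak-1. Tak-1 is a male accession, and every plant was grown for 3 weeks on Gamborg B5 agar. Apical pieces without gemma cups were collected, while the tissue label reads Leaflets. The wounded plants were injured with tweezers and frozen 2 h later, and the mock label also gives 2 h. A replicate pooled 6 to 8 plants. The sample titles call the mutant Mpfad3fad7 and the growth protocol Mpdes6fad5. The labels do not say whether it is a single line, and the counts do not show the edited sequence. The same header stands over 2 wounded mutant columns, so those libraries are called A and B here.

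Wounding in flowering plants triggers calcium and electrical signals, defence genes, cell wall repair and synthesis of jasmonates, hormones made by lipoxygenases and later enzymes from polyunsaturated fatty acids. Fatty acid desaturases supply those polyunsaturated fatty acids. In Marchantia the active hormone is dinor-OPDA, a precursor-like relative of jasmonate, perceived by the receptor MpCOI1 with the repressor MpJAZ. Wounding a desaturase mutant and Tak-1 side by side addresses which wound responses differ when these enzymes are mutated.

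Library totals ran from 19121900 to 30821817 counts, and 3 counts, taken as the floor of detection, equal 0.0973 to 0.157 CPM. Pearson correlations of log2 CPM across genes were 0.979 to 0.992 between libraries of the same group and 0.876 to 0.985 between groups. Of 207 IDs of the male V chromosome in the table, 72 had a count, and together they held 3044 to 4938 CPM per library. Markers named in the gene table were few: 1 photosynthesis gene (132 to 204 CPM), 3 genes of rhizoids, gemma cups or air pores (144 to 272 CPM summed) and 3 of sperm or antheridia (54.6 to 66.3 CPM summed). The rhizoid, gemma cup and air pore sum was 181, 210 and 198 CPM in wounded mutant libraries and 173, 144 and 160 CPM in mock mutant libraries, against 268, 226 and 272 CPM in wounded Tak-1 and 168, 205 and 175 CPM in mock Tak-1. Every wounded library lay above every mock library of its genotype, and every wounded Tak-1 library above every wounded mutant library; the part of these cells in the results was not tested. These levels check neither the cell types nor the mutation. In such bulk tissue, fewer cells of a type and less RNA per cell cannot be told apart.

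The selection narrowed in steps. T was at least 2.5 for 399 genes and M for 299, and both were for 256. In 102 of these a mock mean was under 1 CPM. Of the other 154 genes, 62 had responses 0.5 or more apart, 53 with the smaller response in the mutant and 9 with the larger, which left 92 genes and, without the 4 named, 88. All 88 passed the filter on low counts that kept 13726 genes for testing. The reference gene table held 86 of them and gave a symbol to 20, so 68 are known here by ID alone.

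**Figure D1:**
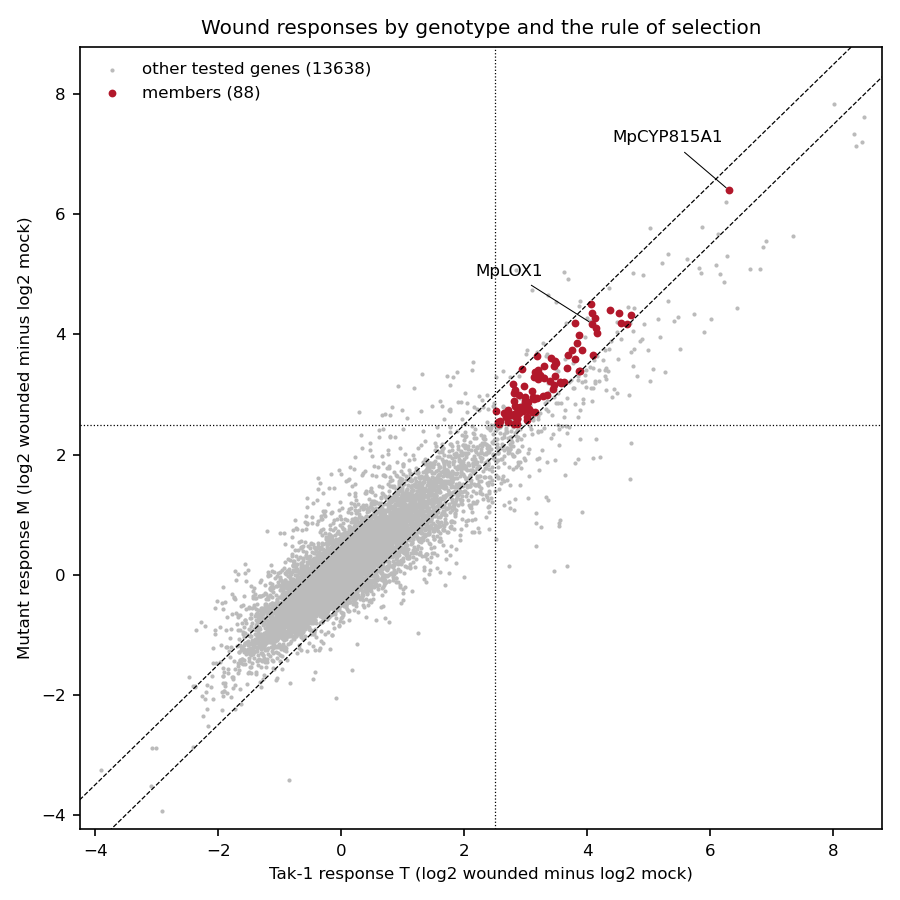
Wound response in the mutant (M, vertical axis) against that in Tak-1 (T, horizontal axis), both in log2 units, for the 13726 tested genes. Red points are the 88 members, dotted lines mark 2.5 on each axis and dashed lines a difference of 0.5, and grey points inside these limits had a mock mean under 1 CPM or were left out by name; MpCYP815A1 stands apart from the other members at 6.40 and 6.31.

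Since the rule used them, the responses are a description. M ran from 2.5 to 6.40 with a median of 3.12, and T from 2.51 to 6.31 with a median of 3.15. M was below T in 57 members and above T in 31, and the median of M minus T was -0.09. M and T rest on library totals with 0.5 CPM added, and the gap between the genotypes depends on the scaling. In edgeR fits the members' median wound change was 3.25 in the mutant and 3.34 in Tak-1 with library totals. With DESeq2 size factors it was 3.27 and 3.46. The median of the members' group means was 79.8 CPM in wounded mutant plants and 7.5 CPM in mock mutant plants, and in Tak-1 plants 79.6 CPM after wounding and 8.2 CPM in mock. Together the members took 1.29, 1.33 and 1.48% of the counts in the wounded mutant libraries and 0.144, 0.156 and 0.151% in the mock mutant libraries. In Tak-1 they took 1.56, 1.79 and 1.53% after wounding and 0.16, 0.167 and 0.169% in mock. The summed share was thus higher in each Tak-1 library than in any mutant library of the same treatment, wounded or mock. Taken singly, 14 members were lower in the mutant in this way, MpCYP815A1, MpABCB6 and Mp3g24240 among them, beside 5.05% of tested genes. Another 2, MpLOX1 and Mp3g03130, were higher, beside 4.14%.

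Every wounded library lay above every mock library of its genotype in all 88 members, in both genotypes. Among all tested genes this held for 30% in the mutant and 26.4% in Tak-1. The narrowest gaps were in Mp2g19460, whose lowest wounded Tak-1 library was 2.63 times its highest mock Tak-1 library, and in Mp1g10640, at 2.93 times in Tak-1. In the mutant the narrowest was Mp8g09000, at 3.7 times. By edgeR's quasi-likelihood test all 88 were higher after wounding in the mutant, against 28.6% of tested genes, and all 88 in Tak-1, against 30%, as the rule of selection requires.

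How closely the responses match is limited by the replicates. No member had a called difference of response between the genotypes, where 3.29% of tested genes did (0.692% higher and 2.59% lower in the mutant), but the rule had already removed large differences. The edgeR fit was scaled otherwise than the rule and did not add its 0.5 CPM, which shrinks M and T most at low mock levels. In this fit the estimated difference passed 0.5 in size in some members, at -0.60 in Mp6g20470 and 0.58 in Mp4g09410. The standard error of that difference in the edgeR fit ran from 0.11 to 0.63 over the members, with a median of 0.25. Its 95% interval lay within 0.5 of zero in only 6 of the 88 members and within 1.0 in 66. For the others, a difference larger than 1.0 on the log2 scale lies inside the interval.

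The limits of the rule cut through a continuous range. Just inside the limit on T were MpAAA (2.51), Mp2g10750 (2.54) and Mp6g03270 (2.57), and just outside it Mp5g02260 (2.49), Mp7g14050 (2.48) and the lipoxygenase gene MpLOX8 (2.38). Just inside the limit on M were Mp5g14710 (2.5), Mp6g03270 (2.5) and Mp8g09000 (2.51), and just outside it MpGST35 (2.49), MpPP2C_F1 (2.48) and Mp1g00620 (2.46). On the difference of responses, Mp6g20470, Mp4g09410 and Mp6g17230 were the last inside, at -0.50, 0.49 and -0.47, and Mp5g21600, Mp8g01140 and MpPKS/CHS13 the first outside, each at -0.50 after rounding. On the mock level, Mp1g22310, Mp1g09180 and MpMATE15 were the last inside (1.01, 1.04 and 1.04 CPM in the lower genotype), and Mp4g21040, Mp2g17690 and MpPR15h the first outside (0.898, 0.858 and 0.828 CPM).

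Genes of regulation and signalling among the members with a symbol were MpWRKY14, MpGRAS4 and MpRLK-Pelle_RKF3c. WRKY proteins are plant transcription factors, many of which act in defence and wounding. MpWRKY14 (Mp6g16800) had 41.7, 37.5 and 48.5 CPM in wounded mutant libraries and 2.87, 5.91 and 3.86 CPM in mock mutant libraries, against 50.5, 45.6 and 37.6 CPM in wounded Tak-1 and 2.53, 3.58 and 3.73 CPM in mock Tak-1. The genotypes overlapped in both treatments, with M at 3.19 and T at 3.58.

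GRAS proteins are plant regulators of transcription named after the Arabidopsis proteins GAI, RGA and SCR. MpGRAS4 (Mp2g03850) had 106, 111 and 125 CPM in wounded mutant libraries and 13.0, 13.6 and 12 CPM in mock mutant libraries, against 156, 168 and 134 CPM in wounded Tak-1 and 14, 12.7 and 14.1 CPM in mock Tak-1. The mutant lay below Tak-1 after wounding without overlap, while the mock libraries overlapped. Averaged over treatments it was 0.26 ± 0.08 (SE) lower in the mutant on the log2 scale (edgeR, adjusted p = 0.0434), a call that held in 9 of 19 alternative analyses.

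Receptor-like kinases sense signals outside the cell and phosphorylate proteins inside it. MpRLK-Pelle_RKF3c (Mp3g10530) had 31.1, 28.2 and 35.3 CPM in wounded mutant libraries and 3.30, 2.98 and 3.73 CPM in mock mutant libraries. In wounded Tak-1 it had 27.8, 30.3 and 24.1 CPM and in mock Tak-1 4.18, 2.27 and 1.82 CPM. M was 3.06 and T 3.10, and the genotypes overlapped in both treatments.

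Among genes of lipid metabolism, MpLOX1 and MpPLD1 were members. Lipoxygenases add oxygen to polyunsaturated fatty acids, the first step of oxylipin synthesis. MpLOX1 (Mp2g00660) had 223, 324 and 233 CPM in wounded mutant libraries and 9.47, 21.7 and 10.6 CPM in mock mutant libraries, against 195, 118 and 132 CPM in wounded Tak-1 and 8.41, 7.36 and 9.08 CPM in mock Tak-1. All 3 mutant libraries lay above all 3 Tak-1 libraries in each treatment, although mock mutant library 1 exceeded mock Tak-1 library 3 by little. Averaged over treatments it was 0.76 ± 0.20 (SE) higher in the mutant on the log2 scale (edgeR, adjusted p = 0.0221). The call was lost in 4 of 19 alternative analyses, without mock Tak-1 library 2, without wounded mutant library A, and in both fits of the numbered libraries alone, with and without the replicate number as a block, and over the alternatives the adjusted p ran from 0.00837 to 0.212.

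Phospholipase D cuts membrane phospholipids to phosphatidic acid, a lipid signal formed after wounding in Arabidopsis. MpPLD1 (Mp2g23410) had 23.9, 34.6 and 31.0 CPM in wounded mutant libraries and 5.13, 4.81 and 3.35 CPM in mock mutant libraries. It had 43.2, 39.2 and 49.1 CPM in wounded Tak-1 and 5.65, 4.59 and 4.70 CPM in mock Tak-1. The wounded mutant libraries lay below the wounded Tak-1 libraries, while mock libraries overlapped, and the genotype difference averaged over treatments missed the threshold (-0.36 ± 0.12 SE on the log2 scale, edgeR adjusted p = 0.0543). It passed in 5 of 19 alternative analyses, where the adjusted p ran from 0.0229 to 0.134 over all 19: with DESeq2, in both fits of the numbered libraries alone, with and without the block, without mock mutant library 1 and without wounded mutant library A.

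Among the members with a symbol were 3 PKS/CHS genes, 2 dirigent genes and 1 P450 gene. PKS/CHS genes encode type III polyketide synthases, the family of chalcone synthase, which opens flavonoid synthesis. Dirigent (DIR) proteins steer the coupling of phenolic radicals, as in lignan formation. P450 enzymes (CYP) are monooxygenases, many of them in secondary metabolism.

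MpPKS/CHS12 (Mp4g14150) had 29.0, 38.4 and 40.3 CPM in wounded mutant libraries and 1.55, 4.29 and 2.46 CPM in mock mutant libraries, against 44.3, 32.7 and 34.7 CPM in wounded Tak-1 and 3.67, 2.07 and 3.11 CPM in mock Tak-1. MpPKS/CHS16 (Mp4g14220) had 45.0, 70.5 and 63.9 CPM in wounded mutant libraries and 1.79, 8.47 and 3.18 CPM in mock mutant libraries, against 56.5, 43.7 and 45.4 CPM in wounded Tak-1 and 3.54, 1.87 and 3.70 CPM in mock Tak-1. MpPKS/CHS20 (Mp7g14890) had 157, 158 and 187 CPM in wounded mutant libraries and 16.3, 33.0 and 32.5 CPM in mock mutant libraries, against 212, 262 and 231 CPM in wounded Tak-1 and 29.7, 32.4 and 34.4 CPM in mock Tak-1. In MpPKS/CHS12 and MpPKS/CHS16 the genotypes overlapped in both treatments and mock mutant library 2 was the highest of its group. In MpPKS/CHS20 the wounded mutant libraries lay below the wounded Tak-1 libraries and the mock libraries overlapped.

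MpDIR35 (Mp5g16900) had 49.2, 71.9 and 63.7 CPM in wounded mutant libraries and 4.82, 6.07 and 6.27 CPM in mock mutant libraries, against 68.5, 40.5 and 46.1 CPM in wounded Tak-1 and 5.10, 5.34 and 4.74 CPM in mock Tak-1. MpDIR33 (Mp5g16920) had 26.1, 33.0 and 33.6 CPM in wounded mutant libraries and 0.995, 3.45 and 1.06 CPM in mock mutant libraries, against 42.8, 26.1 and 32.8 CPM in wounded Tak-1 and 1.79, 1.97 and 2.43 CPM in mock Tak-1. Both dirigent genes overlapped between genotypes in both treatments, and M and T were 3.75 each in MpDIR33.

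MpCYP815A1 (Mp1g15990) had the largest response of all members. It had 291, 348 and 434 CPM in wounded mutant libraries and 5.77, 2.51 and 2.92 CPM in mock mutant libraries, against 790, 1005 and 743 CPM in wounded Tak-1 and 8.04, 13.9 and 8.66 CPM in mock Tak-1. The mutant was below Tak-1 in each treatment without overlap, and yet M (6.40) and T (6.31) were close. Averaged over treatments it was 1.33 ± 0.19 (SE) lower in the mutant on the log2 scale (edgeR, adjusted p = 0.000703).

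Several of these genes lie beside others of the same families. On chromosome 4 of the reference, 13 consecutive IDs from Mp4g14100 to Mp4g14220 hold 7 PKS/CHS genes, MpPKS/CHS10 to MpPKS/CHS16, and 4 genes of the phenylalanine ammonia-lyase (PAL) family, the enzyme that feeds phenylalanine into phenolic metabolism. The members among them were MpPKS/CHS12, MpPKS/CHS16 and Mp4g14170, a gene with no entry in the reference table. Mp4g14170 had 13.6, 21.0 and 20.9 CPM in wounded mutant libraries and 1.07, 3.14 and 1.31 CPM in mock mutant libraries, against 23.1, 13.8 and 22.4 CPM in wounded Tak-1 and 2.16, 2.22 and 2.86 CPM in mock Tak-1. Of the 12 tested genes of this run, 10 were higher and 0 lower after wounding in the mutant, and 11 higher and 1 lower, MpPKS/CHS14, in Tak-1 (edgeR). Several of the others were kept out by a single condition of the rule or by its margin: MpPAL7 (M 4.44, T 4.76) and MpPAL6 (M 2.59, T 2.89) were under 1 CPM in mock, MpPKS/CHS13 (M 4.18, T 4.69) had responses too far apart, and MpPAL4 (M 2.40, T 2.49) fell short of 2.5. MpPKS/CHS14 stood out, with M at -0.13 and T at -0.37. Reads of such similar neighbours may have been shared or dropped in counting, so single values are uncertain.

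**Figure D2:**
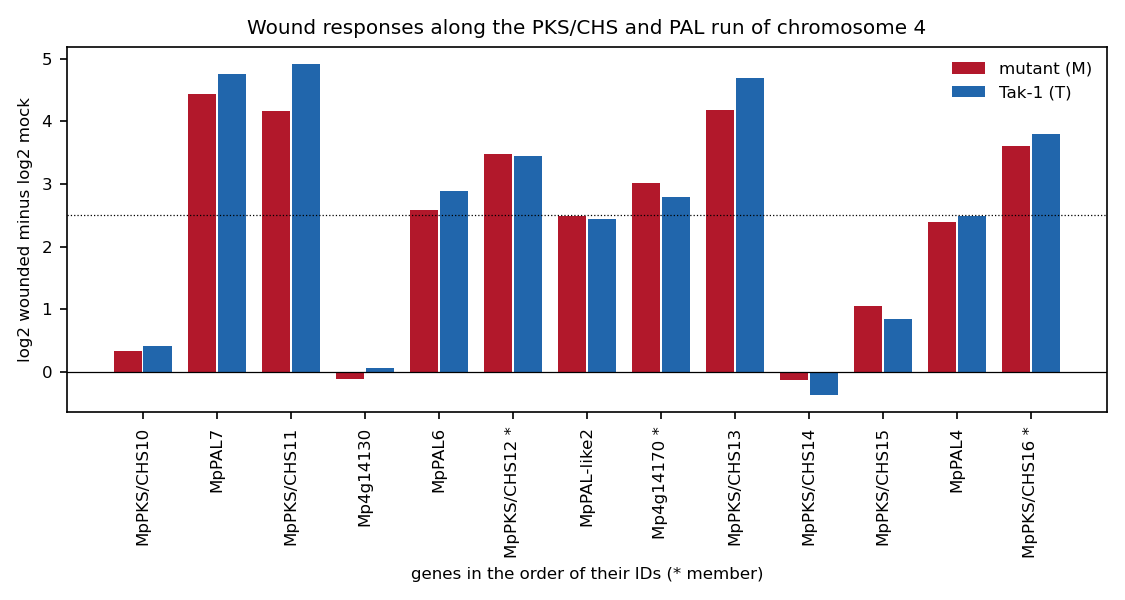
Wound response (log2 wounded minus log2 mock, with 0.5 CPM added) of 13 genes with consecutive IDs on chromosome 4, in the mutant (M, red) and in Tak-1 (T, blue). The dotted line is 2.5 and asterisks mark the 3 members; MpPKS/CHS10, MpPKS/CHS14, MpPKS/CHS15 and Mp4g14130 stay at or below 1.05 in both genotypes, while the other 9 genes reach 2.40 or more.

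MpPKS/CHS20 lies in another such run on chromosome 7, between MpPAL3 (Mp7g14880) and MpPKS/CHS23 (Mp7g14960). Of 8 tested genes there, 5 were higher and 0 lower after wounding in the mutant, and 5 higher and 2 lower, the peroxidase genes MpPOD154 and MpPOD155, in Tak-1 (edgeR). MpPAL3 had M at 2.87 and T at 3.58, too far apart for the rule, and MpPKS/CHS23 had M at 2.25 and T at 2.48. MpDIR35 and MpDIR33 are separated by MpDIR34 alone, whose response was small (M 0.64, T 1.07). MpDIR34 had 6.20, 6.46 and 5.34 CPM in wounded mutant libraries and 6.41, 2.56 and 2.03 CPM in mock mutant libraries, against 35.6, 18.3 and 25.3 CPM in wounded Tak-1 and 8.22, 19.7 and 9.05 CPM in mock Tak-1.

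Cell wall and chitinase families gave 4 members with a symbol. GH16 is the glycoside hydrolase family of xyloglucan endotransglucosylase/hydrolases, which cut and rejoin wall polysaccharides, and the families GH18 and GH19 include chitinases, which cut the chitin of fungi. MpGH16.7 (Mp2g17810) had 225, 236 and 267 CPM in wounded mutant libraries and 11.6, 10.2 and 12.3 CPM in mock mutant libraries, against 206, 219 and 237 CPM in wounded Tak-1 and 10.4, 11.5 and 15.9 CPM in mock Tak-1. Its neighbour MpGH16.8 (Mp2g17820) had 246, 219 and 257 CPM in wounded mutant libraries and 34.2, 28.0 and 28.3 CPM in mock mutant libraries, against 207, 218 and 248 CPM in wounded Tak-1 and 22.5, 20.3 and 25.5 CPM in mock Tak-1. The 2 genes are next to each other on chromosome 2 and may share reads. MpGH16.7 overlapped between the genotypes, whereas MpGH16.8 was higher in all mock mutant libraries and averaged 0.25 ± 0.07 (SE) higher in the mutant on the log2 scale (edgeR, adjusted p = 0.0281), a call that held in 11 of 19 alternative analyses.

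MpGH18.1 (Mp1g22460) had 37.0, 24.3 and 31.2 CPM in wounded mutant libraries and 1.83, 2.41 and 2.42 CPM in mock mutant libraries, against 26.9, 32.5 and 23.3 CPM in wounded Tak-1 and 2.25, 1.31 and 2.47 CPM in mock Tak-1. MpGH19.6 (Mp4g20440) had 30.8, 29.0 and 33.5 CPM in wounded mutant libraries and 1.39, 6.17 and 3.35 CPM in mock mutant libraries, against 22.7, 37.6 and 27.0 CPM in wounded Tak-1 and 2.80, 2.22 and 3.57 CPM in mock Tak-1. Both overlapped between genotypes in both treatments. The mock mutant libraries of MpGH19.6 spread 4.43-fold, with library 2 the highest.

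The transporters among the members with a symbol were MpABCB6 and MpMATE15. ABCB proteins are ATP-driven membrane pumps, some of which move auxin in Arabidopsis, and MATE proteins export toxins and secondary metabolites. MpABCB6 (Mp1g26440) had 149, 158 and 230 CPM in wounded mutant libraries and 16.6, 18.1 and 18.3 CPM in mock mutant libraries, against 393, 528 and 349 CPM in wounded Tak-1 and 37.1, 33.8 and 41.7 CPM in mock Tak-1. The genotypes did not overlap in either treatment, and the average over treatments was 1.17 ± 0.14 (SE) lower in the mutant on the log2 scale (edgeR, adjusted p = 0.000187). MpMATE15 (Mp6g02120) had 13.6, 12.4 and 14.3 CPM in wounded mutant libraries and 1.11, 1.05 and 0.975 CPM in mock mutant libraries, against 9.40, 15.9 and 13.4 CPM in wounded Tak-1 and 1.42, 0.857 and 2.04 CPM in mock Tak-1. MpMATE15 is among the members with the lowest mock level, and its genotypes overlapped.

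Dehydrins are hydrophilic proteins that accumulate in drying or cold plant cells. MpDHN3 (Mp6g15610) had 116, 173 and 155 CPM in wounded mutant libraries and 19.5, 13.0 and 13.8 CPM in mock mutant libraries, against 134, 145 and 120 CPM in wounded Tak-1 and 13.5, 13.6 and 9.77 CPM in mock Tak-1. The genotypes overlapped in both treatments. MpLDAL2 (Mp6g19070) had 64.1, 58.9 and 80.5 CPM in wounded mutant libraries and 2.71, 3.92 and 3.05 CPM in mock mutant libraries, against 65.3, 77.8 and 65.9 CPM in wounded Tak-1 and 2.89, 2.27 and 2.37 CPM in mock Tak-1. MpAAA (Mp7g18570) had 109, 104 and 134 CPM in wounded mutant libraries and 17.4, 17.5 and 16.4 CPM in mock mutant libraries, against 104, 141 and 93.1 CPM in wounded Tak-1 and 15.6, 21.2 and 21.3 CPM in mock Tak-1. MpLDAL2 and MpAAA lie near opposite ends of the range of responses, at M 4.20 and T 4.54 and at M 2.72 and T 2.51, and in both the genotypes overlapped.

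**Figure D3:**
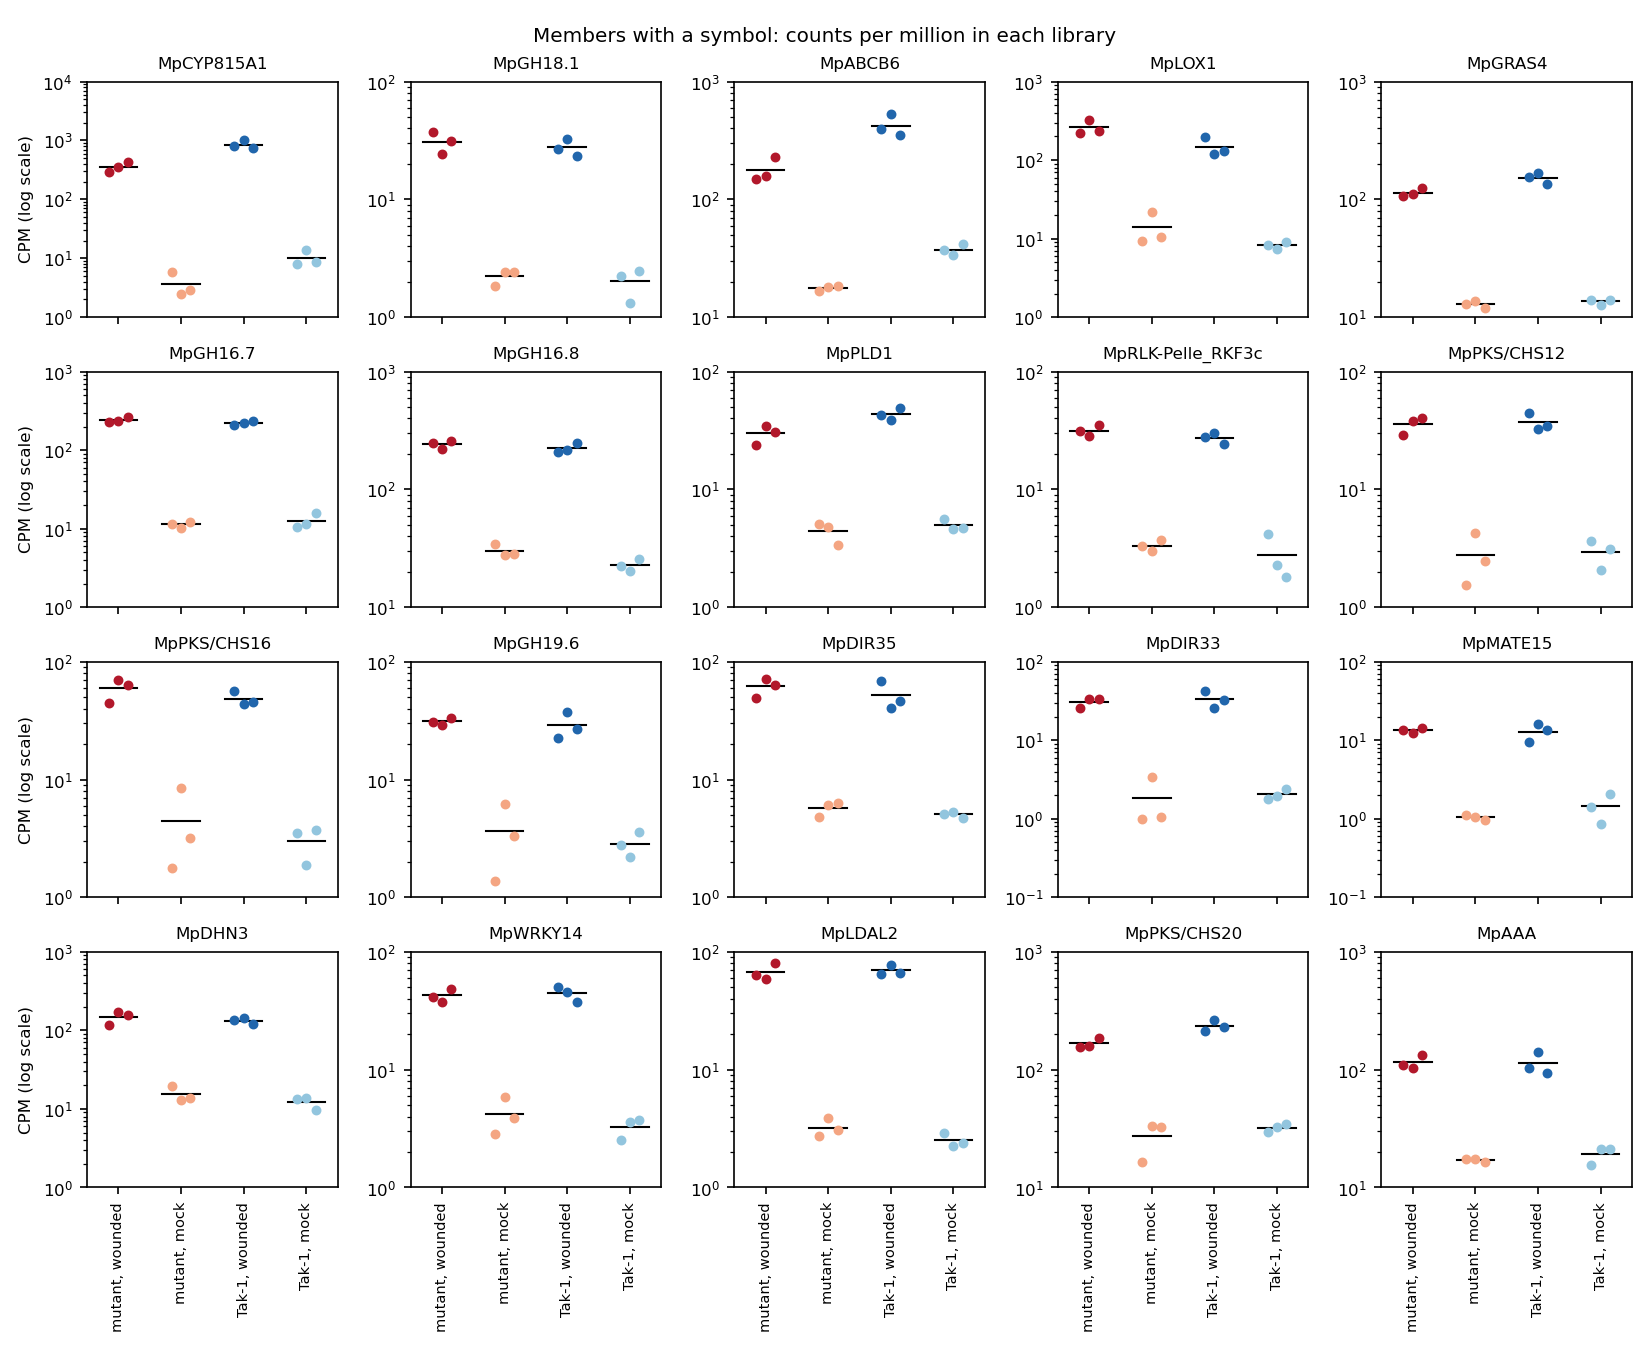
CPM on a log axis in each of the 12 libraries for the 20 members with a symbol, by group: wounded mutant, mock mutant, wounded Tak-1 and mock Tak-1. Points are libraries and lines group means; in all 20 panels the wounded libraries lie above the mock libraries of the same genotype, and MpCYP815A1 and MpABCB6 lie lower and MpLOX1 higher in the mutant in both treatments.

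Most members have no symbol, and these include the genes that took most counts after wounding. Mp3g24240 had 1179, 1111 and 1348 CPM in wounded mutant libraries and 174, 194 and 197 CPM in mock mutant libraries, against 1452, 1752 and 1542 CPM in wounded Tak-1 and 216, 224 and 237 CPM in mock Tak-1. Mp2g05530 had 753, 738 and 748 CPM in wounded mutant libraries and 93.3, 85.9 and 101 CPM in mock mutant libraries, against 626, 782 and 658 CPM in wounded Tak-1 and 90.7, 103 and 85.3 CPM in mock Tak-1. Mp6g02000 had 587, 595 and 737 CPM in wounded mutant libraries and 32.2, 29.4 and 27.3 CPM in mock mutant libraries, against 614, 858 and 640 CPM in wounded Tak-1 and 32.2, 35.1 and 33.6 CPM in mock Tak-1. Mp3g24240 was lower in the mutant in each treatment without overlap, Mp2g05530 overlapped in both, and Mp6g02000 overlapped after wounding only. The wounded mutant libraries of Mp2g05530 lay close together, at 746 ± 7.92 CPM (SD, n = 3). Next in counts after wounding were Mp6g00390, MpCYP815A1, Mp4g05210, Mp4g07710, Mp4g02940, Mp3g16500 and Mp3g19320, whose means ran from 355 to 529 CPM in wounded mutant plants and from 465 to 846 CPM in wounded Tak-1.

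After MpCYP815A1, the largest responses were those of Mp1g04650 and Mp7g18870. Mp1g04650 had 333, 328 and 364 CPM in wounded mutant libraries and 16.6, 17.3 and 16.1 CPM in mock mutant libraries, against 418, 506 and 402 CPM in wounded Tak-1 and 16.3, 15.7 and 17.5 CPM in mock Tak-1. Mp7g18870 had 126, 141 and 159 CPM in wounded mutant libraries and 5.57, 7.90 and 5.85 CPM in mock mutant libraries, against 157, 152 and 153 CPM in wounded Tak-1 and 6.48, 5.80 and 6.46 CPM in mock Tak-1. Mp1g04650 was lower in the mutant after wounding without overlap and overlapped in mock, and Mp7g18870 overlapped in both treatments. The smallest mean responses were those of Mp6g03270 (2.54), Mp2g10750 (2.54) and Mp1g10640 (2.56).

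The families around the members give the setting. Of 13 tested WRKY genes, all 13 were higher after wounding in the mutant, and 12 higher and 1 lower in Tak-1 (edgeR); their median log2 changes were 2.17 and 2.35, beside 0.02 and 0.01 over all tested genes. MpWRKY14 was the only member, since MpWRKY10 was left out by name. MpWRKY7, with one of the largest changes in the list, had 4.12, 6.65 and 7.25 CPM in wounded mutant libraries and 0.239, 0.732 and 0.551 CPM in mock mutant libraries, against 8.57, 5.47 and 5.95 CPM in wounded Tak-1 and 0.322, 0.252 and 0.227 CPM in mock Tak-1, and both its mock level and its difference of responses (-0.53) kept it out. Of 111 kinase genes, 48 were higher and 24 lower in the wounded mutant, and 50 higher and 24 lower in wounded Tak-1. The kinase gene MpRLK-Pelle_L-LEC4, the largest change in that list, was kept out by its mock level, with 14.8, 17.6 and 18.3 CPM in wounded mutant libraries, 0.478, 0.523 and 0.297 CPM in mock mutant libraries, 19.5, 24.4 and 21.8 CPM in wounded Tak-1 and 0.735, 0.756 and 1.10 CPM in mock Tak-1.

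Of 24 tested PKS/CHS genes, 10 were higher and 1 lower after wounding in the mutant, and 11 higher and 5 lower in Tak-1. Of 10 PAL genes, none of them members, 6 were higher and 1 lower in the mutant, and 6 higher and 0 lower in Tak-1. Of 46 dirigent genes, 18 were higher and 3 lower in the mutant, and 26 higher and 4 lower in Tak-1. Counts ran differently in GH16, the family of MpGH16.7 and MpGH16.8, where 5 of 24 genes were higher and 7 lower in the mutant, and 5 higher and 9 lower in Tak-1. Of 21 genes of families GH18 and GH19, 10 were higher and 1 lower in the mutant, and 7 higher and 1 lower in Tak-1. Of 89 P450 genes, 30 were higher and 22 lower in the mutant, and 25 higher and 25 lower in Tak-1. Of 11 GRAS genes, 2 were higher and 4 lower in the mutant, and 2 higher and 5 lower in Tak-1. Of 6 phospholipase D genes, 5 were higher and 0 lower in each genotype. All 3 dehydrin genes were higher in the mutant and 2 in Tak-1, and of the 3 genes named RKF3, 2 were higher in each genotype. Of 131 detoxification genes (glutathione and glycosyl transferases, MATE and ABC transporters), 45 were higher and 33 lower in the mutant, and 51 higher and 32 lower in Tak-1. Calls over all tested genes were 28.6% higher and 22.6% lower in the mutant, and 30% higher and 25% lower in Tak-1.

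Of 20 tested genes of oxylipin synthesis and jasmonate signalling, a list narrowed after the members were known, 11 were higher and 4 lower after wounding in the mutant, and 10 higher and 4 lower in Tak-1 (edgeR). MpLOX1 was the only member. A difference of response was called in 5 of the 20, all lower in the mutant, beside 2.59% of tested genes: MpLOX2 (M 2.06, T 2.88), MpLOX4 (M 3.30, T 4.81), MpLOX14 (M -1.25, T -0.36), MpCYP74N2 (M 1.39, T 2.25) and MpJAZ (M 2.14, T 2.79), named after their values were seen. For MpLOX1 the same estimate was -0.01 ± 0.40 (SE) on the log2 scale, so its 95% interval includes a difference of the size found for MpJAZ (-0.74). Of the 20 genes, most of them lipoxygenase genes, 12 were lower in the mutant averaged over treatments, beside 10.2% of tested genes. Only 1, MpLOX1, was higher, beside 7.91%. With the DOXC dioxygenases, which the symbol pattern also took, the list held 50 tested genes, of which 17 were higher and 13 lower in the mutant and 17 higher and 14 lower in Tak-1, and the difference of response was called higher in the mutant in 1 and lower in 6. No AP2/ERF, MYB, bHLH, NAC, bZIP, heat shock, calcium or ubiquitin gene of the lists was a member. The lists hold only genes with a symbol, 2538 of the 13726 tested. The 68 members without a symbol could not be placed in any family here.

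The rule set no limit on the genotype difference averaged over wounded and mock plants, which is orthogonal to T, M and their difference in this balanced design. The limit of 1 CPM on the mock mean of each genotype does bear on it, since the mock levels are part of this average. The shares that follow are therefore not free of the selection. Of the 88 members, 23 were lower and 5 higher in the mutant (edgeR, adjusted p under 0.05 over 13726 genes). This is 31.8% of the members, beside 18.1% of tested genes called in either direction. The lower ones are 26.1% of the members, beside 10.2% of tested genes, and the higher ones 5.68%, beside 7.91%. The median over the members was -0.14 on the log2 scale and over all tested genes 0.00. In 14 members (15.9%) the mutant lay below Tak-1 without overlap in both treatments, beside 5.05% of tested genes, and in 2 members (2.27%) above it, beside 4.14%. All 16 of these were among the called.

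**Figure D4:**
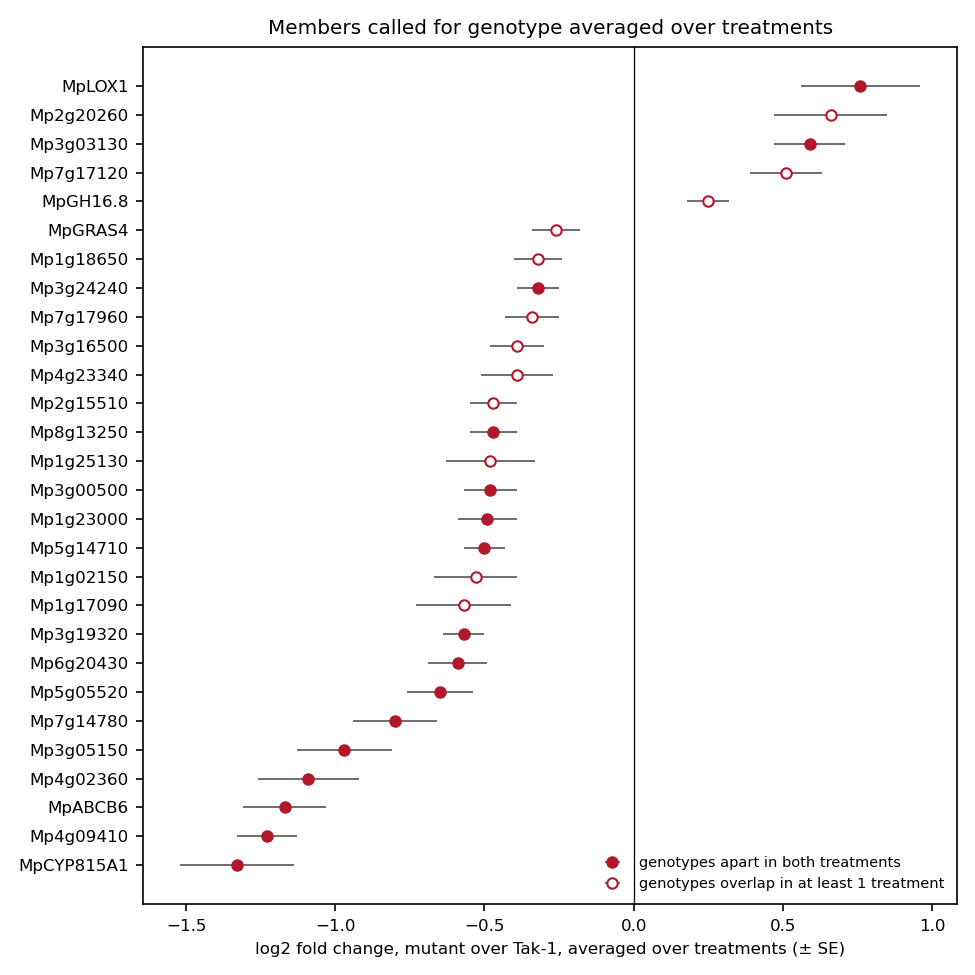
Log2 fold change of the mutant over Tak-1, averaged over wounded and mock plants, with its SE, for the 28 members called by edgeR. Filled points are the 16 members whose genotypes do not overlap in either treatment and open points the others; 23 members lie left of zero, down to -1.33 in MpCYP815A1, and 5 right of it, up to 0.76 in MpLOX1.

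Beside MpCYP815A1 and MpABCB6, the members furthest below Tak-1 have no symbol. Mp4g09410 had 26.9, 26.0 and 27.7 CPM in wounded mutant libraries and 1.59, 1.83 and 2.71 CPM in mock mutant libraries, against 53.8, 47.7 and 48.5 CPM in wounded Tak-1 and 5.56, 6.35 and 6.29 CPM in mock Tak-1 (-1.23 ± 0.10 SE, edgeR adjusted p = 1.86e-05). Mp4g02360 had 57.3, 73.0 and 73.8 CPM in wounded mutant libraries and 6.45, 2.72 and 5.55 CPM in mock mutant libraries, against 154, 155 and 121 CPM in wounded Tak-1 and 9.14, 13.9 and 8.95 CPM in mock Tak-1 (-1.09 ± 0.17 SE, edgeR adjusted p = 0.000981). Mp3g05150 had 138, 185 and 199 CPM in wounded mutant libraries and 6.05, 9.88 and 9.70 CPM in mock mutant libraries, against 383, 339 and 230 CPM in wounded Tak-1 and 16.4, 18.7 and 17.8 CPM in mock Tak-1 (-0.97 ± 0.16 SE, edgeR adjusted p = 0.0016). In these 3 genes no mutant library reached a Tak-1 library of the same treatment. Mp4g09410 also has the widest gap between M (3.43) and T (2.94) in favour of the mutant.

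The other 9 members below Tak-1 with the same separation, from -0.80 to -0.32 on the log2 scale, were Mp7g14780 (-0.80), Mp5g05520 (-0.65), Mp6g20430 (-0.59), Mp3g19320 (-0.57), Mp5g14710, Mp1g23000, Mp3g00500, Mp8g13250 and Mp3g24240 (-0.32). Mp7g14780 had 21.8, 22.4 and 22.2 CPM in wounded mutant libraries and 2.23, 0.889 and 1.65 CPM in mock mutant libraries, against 38.3, 45.2 and 36.4 CPM in wounded Tak-1 and 2.85, 2.37 and 2.82 CPM in mock Tak-1. Among the members higher in the mutant, Mp3g03130 was the other one with no overlap, with 19.2, 24.3 and 19.3 CPM in wounded mutant libraries and 3.10, 3.45 and 2.42 CPM in mock mutant libraries, against 16.4, 14 and 16.9 CPM in wounded Tak-1 and 1.93, 1.97 and 1.43 CPM in mock Tak-1 (0.59 ± 0.12 SE, edgeR adjusted p = 0.005). Mp2g20260 (0.66) and Mp7g17120 (0.51) were also called higher and overlapped in at least 1 treatment. Of the 28 called members, 15 were called in all 19 alternative analyses, all of them lower in the mutant, MpCYP815A1, MpABCB6, Mp4g09410, Mp4g02360 and Mp3g05150 included. The other members did not pass the threshold, which does not show that they were equal between the genotypes, and 14 of them were called in at least 1 alternative.

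**Figure D5:**
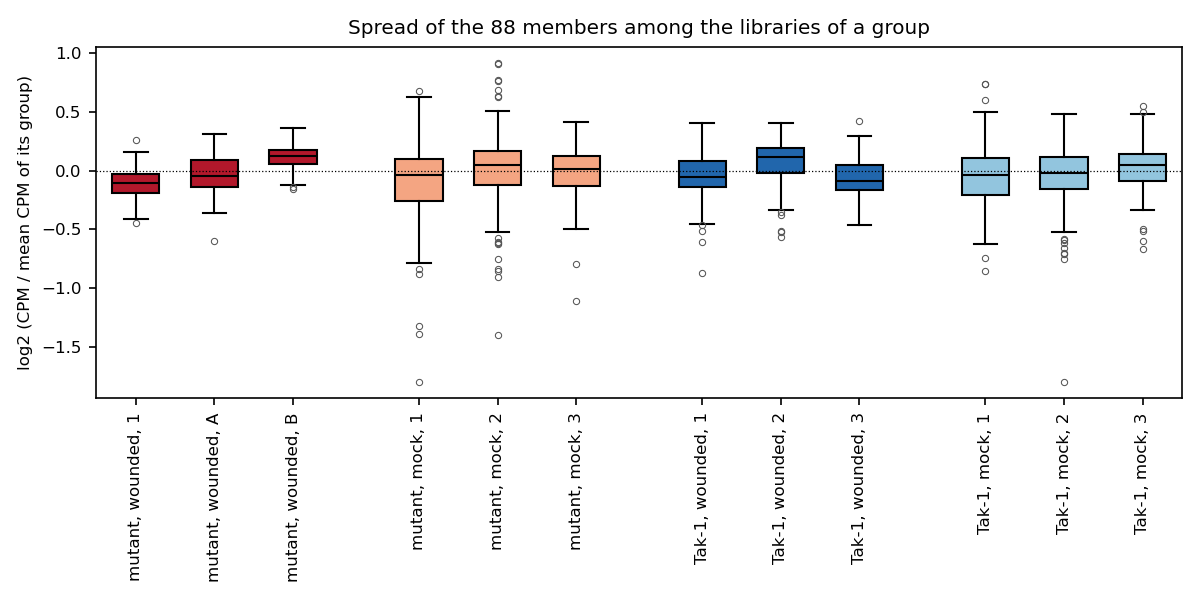
Log2 ratio of each library's CPM to the mean of its group for the 88 members, by library, with the wounded mutant, mock mutant, wounded Tak-1 and mock Tak-1 groups from left to right. Boxes show the interquartile range of the members with the median, whiskers reach 1.5 times the box height at most and circles are single members beyond; wounded mutant library B and wounded Tak-1 library 2 have the highest medians of their groups, and the mock mutant libraries 1 and 2 have the most single members far from zero.

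Within the wounded groups, 1 library was often the highest. Wounded mutant library B was the highest of its group in 59 of 88 members and wounded Tak-1 library 2 in 53, and with TMM scaling in 65 and 55. This was not counted over all tested genes, so a trait of the members and one of the whole library cannot be told apart. A range of at least 2-fold within the wounded group was seen in 0 members in the mutant and in 2 in Tak-1, Mp2g19460 among them, beside 8.45% and 9.73% of tested genes. Within the mock groups it was seen in 18 members in the mutant (20.5%, beside 12.4% of tested genes) and in 11 in Tak-1 (12.5%, beside 10.4%). The low counts after wounding do not mean that the members varied less. The rule kept out genes with few counts, and the members' wounded means were at least 8.53 CPM. Their median CV (SD over the mean) in the wounded mutant was 11.7%, beside 8.11% over all tested genes. In wounded Tak-1 it was 12.5%, beside 10.2%. The members' mock means were lower, with a median of 7.5 CPM in the mutant and 8.2 CPM in Tak-1. They went down to 1.01 and 1.08 CPM, and how far such low levels widen the mock ranges was not tested.

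The 18 mutant members are sorted here by their highest mock library, which does not give them 1 shared pattern. Mock mutant library 2 was the highest in 10 of them, among which were MpPKS/CHS12, MpPKS/CHS16, MpPKS/CHS20, Mp4g14170, MpDIR33, MpGH19.6, MpWRKY14, MpLOX1 and Mp8g09000. The widest of these was Mp8g09000, at 4.45 CPM in library 2, 0.796 CPM in library 1 and 3.05 CPM in library 3. In MpPKS/CHS20 library 3 was nearly as high as library 2 (32.5 against 33.0 CPM), and library 1 was low (16.3 CPM). Mock mutant library 1 was the highest in 6, among them MpCYP815A1 (5.77 CPM, against 2.51 CPM in library 2), Mp4g02360 and Mp7g14780. Library 2 was also the highest in some neighbours of the chromosome 4 members. MpPKS/CHS13 had 0.597, 4.60 and 1.57 CPM and MpPAL4 3.38, 9.67 and 5 CPM in mock mutant libraries 1, 2 and 3. What sets these libraries apart was not tested.

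By the chromosome in their IDs, 17, 12, 11, 15, 8, 12, 10 and 2 members lie on chromosomes 1 to 8, and 0 on the V chromosome. Chromosome 4 holds members at 0.87% of its tested genes and chromosome 8 at 0.156%, the highest and lowest among the numbered chromosomes. Beside the PKS/CHS, GH16 and dirigent neighbours, 2 more close pairs were found. Mp6g20430 and Mp6g20470 have 3 genes between them, of which Mp6g20440 (M 2.05, T 2.85) and Mp6g20450 (M 1.72, T 2.30) also had higher counts after wounding and Mp6g20460 (M 0.37, T -0.15) did not pass the test in either genotype. Mp7g17960 and Mp7g17980 are separated by Mp7g17970, which had a mean of 0.509 CPM in the wounded mutant and 0.807 CPM in wounded Tak-1.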

How the data were processed

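Transcripts were counted in 12 libraries, and the deposited file holds raw counts per gene: whole numbers, whose library totals differ. Trim Galore, HISAT2, HTSeq and edgeR are named without versions or roles, per the submitters' processing notes. Of genome build, annotation and strandedness, the sources used here say nothing. Groups were taken from the sample titles. A column header used for 2 wounded mutant libraries carries 1 replicate number, so they are called A and B in table order. All value columns were used.

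IDs were matched to a gene table of assembly MpTak2_v7.1 for symbols and gene order (17641 of 20574 matched), and no coordinates were used. Promoter sequences were not analysed here. CPM over library totals and the rule gave the members. With R 4.3.3 and edgeR 4.0.16, genes kept by filterByExpr (13726) were scaled by TMM and fitted with 1 mean per group over all 12 libraries (8 residual degrees of freedom). Tests were two-sided quasi-likelihood tests, with a gene called where its p, adjusted by Benjamini-Hochberg over all tested genes, was under 0.05. The SE is the log2 fold change over the square root of the F statistic. The code was tested on simulated data for the genotype average only, not for the wound contrasts, the difference of response or the rule. DESeq2 1.42.0, other scalings, no filter, a replicate block and leaving out each library were alternatives, 19 in all.

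The genes named are the members with a symbol, the 10 with most counts after wounding, the 10 with the largest called and non-overlapping genotype difference, the 3 largest and 3 smallest responses, the 3 nearest each limit, neighbours, and the largest changes in lists that hold a member. Other genes, such as Mp2g19460, Mp2g20260, Mp7g17120 and the rest of the called members, were named after their values were seen. The members and lists were chosen with earlier results of these data known. Lists were made by symbol. Family lists (PKS/CHS, PAL, dirigent, GH16, GH18 and GH19, P450, GRAS, phospholipase D, dehydrin, RKF3, oxylipin without DOXC) were added after the members were seen. Same-numbered libraries of different groups did not deviate together (3 of 9 correlations over 0.1, against 5 of 18 between different numbers), so the numbers were not used as pairs. Depth was 19121900 to 30821817 counts, and the floor of 3 counts covers counting error only. The values of 1 member are not reported here.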

Additional observations from a re-analysis of the deposited data

Results flagged for a closer look

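By the edgeR interaction term, the wound response differed between the genotypes in 5 of 20 tested genes of oxylipin synthesis and jasmonate signalling. Over all tested genes the share was 3.29%. The list of 20 was narrowed after the members were known, and the limits of the rule kept these 5 genes out of the members. The response was smaller in the mutant, with a difference of -0.92 (MpLOX2), -0.96 (MpCYP74N2), -1.57 (MpLOX4) and -0.74 (MpJAZ) on the log2 scale, mutant minus Tak-1. In MpLOX14 the difference was -1.0, and its fall after wounding was called in the mutant (-1.22) but not in Tak-1 (-0.22).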

How the results depend on the processing

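The number of members called for genotype averaged over treatments, 28, was 22 to 29 when 1 library was left out, and the number lower in the mutant, 23, was 18 to 26 over all alternatives. Of the 28, 15 were called in every alternative, 14 other members were called in at least 1, and no called member changed sign. The number higher in the mutant, 5, was less stable: 2 to 6 with 1 library left out (2 without mock Tak-1 library 2, 3 without wounded Tak-1 library 1, wounded mutant library A or wounded mutant library B) and 8 with upper-quartile scaling. With the replicate number as a block over the numbered libraries it was 2, and over the same libraries without the block 1. In these 2 fits, 20 and 21 members were called in either direction, 1032 and 1390 genes in place of 2488 for genotype, and 4104 and 4667 in place of 7019 for wounding in the mutant, where 1 numbered wounded mutant library was left and is assumed to vary like the other groups. The all-gene median moved by -0.14 for wounding in the mutant and -0.19 in Tak-1 with upper-quartile scaling, and by -0.13 in Tak-1 with library totals. Upper-quartile scaling gave 1459 genes higher and 1263 lower for genotype, 3180 higher and 4595 lower for wounding in the mutant, and 3122 higher and 5504 lower in Tak-1. The rule chose 80 members with 1 CPM added, 91 with TMM-scaled totals, 89 with means of log2 values and 81 to 100 with 1 library left out; 52 of the 88 were members under all 15 of these settings. Depth limits the members near 1 CPM in mock, whose values rest on the fewest counts.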
